A study of Mus musculus with 6 samples.

Results

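Mesothelial identity genes are the transcripts by which the flat cells that line the peritoneum are usually recognised, and 10 of the 22183 genes in the deposited table were taken as such by their symbol: *Msln*, *Upk3b*, *Upk1b*, *Wt1*, *Lrrn4*, *Gpm6a*, *Muc16*, *Krt8*, *Krt18* and *Krt19*. Each symbol had a single row in the table. They were measured by RNA sequencing of CD31-sorted peritoneal cells, labelled endothelial cells (ECs), from 3 saline mice and 3 PD fluid mice, with a separate library for each mouse. All 6 mice were wild type, and the methods of the study describe male C57BL/6J animals of 8 to 10 weeks. The PD fluid mice received daily intraperitoneal injections of a high-glucose dialysis fluid (PD fluid) for 6 weeks, and the saline mice received saline on the same schedule. The sample labels describe magnetic sorting of CD31+ cells, whereas the methods describe collagenase digestion of mesentery before CD31+ CD45- cells were sorted by flow cytometry, and neither route selects for mesothelium.

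Mesothelial cells form a single layer over the mesentery and the abdominal wall, and they are the first cells that instilled dialysis fluid meets. They come from mesoderm yet build an epithelial sheet, with simple keratins inside the cell, glycoproteins on the free surface and the transcription factor WT1 in the nucleus. Mesothelin and MUC16 bind each other at that surface. In peritoneal dialysis, mesothelial cells can detach or take on mesenchymal features, and they release growth factors that act on the vessels beneath them. The study itself used UPK3B as its protein marker of mesothelial cells in the mesentery.

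The upstream sequences of 4 of the 10 genes are shown because all 10 were higher in PD fluid mice and these 4 stand for the surface genes (*Upk3b* and *Lrrn4*) and for the neighbouring keratin genes (*Krt8* and *Krt18*). They are RefSeq promoter windows on GRCm38.p6, read 5′ to 3′ on the strand of the gene and ended before the first base that RefSeq or GENCODE M21 places in the gene.
Upk3b, chr5:136038246-136038495, plus strand: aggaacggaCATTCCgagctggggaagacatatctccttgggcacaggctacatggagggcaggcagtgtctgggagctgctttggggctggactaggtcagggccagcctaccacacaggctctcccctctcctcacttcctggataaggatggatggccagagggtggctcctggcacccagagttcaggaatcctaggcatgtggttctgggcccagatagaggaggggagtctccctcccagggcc
Lrrn4, chr2:132880892-132881112, minus strand: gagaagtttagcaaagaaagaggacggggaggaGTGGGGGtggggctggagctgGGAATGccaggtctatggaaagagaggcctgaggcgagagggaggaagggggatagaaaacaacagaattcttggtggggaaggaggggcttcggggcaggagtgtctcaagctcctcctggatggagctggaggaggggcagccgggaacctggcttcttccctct
Krt8, chr15:102004483-102004592, minus strand: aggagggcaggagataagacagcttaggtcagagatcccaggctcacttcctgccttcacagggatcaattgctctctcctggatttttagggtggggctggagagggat
Krt18, chr15:102027966-102028179, plus strand: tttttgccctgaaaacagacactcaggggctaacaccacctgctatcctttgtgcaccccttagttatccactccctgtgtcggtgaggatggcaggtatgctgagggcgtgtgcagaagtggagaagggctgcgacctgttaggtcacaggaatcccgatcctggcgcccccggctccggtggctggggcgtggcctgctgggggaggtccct
Capitals mark matches, on either strand, to the letters of a TEAD site (GGAATG) or of the core of a WT1 site (GTGGGNG). RefSeq windows were at hand for 6 of the 10 genes, in 7 windows of 300 bases each (250 before and 50 after the start). The TEAD letters were found in 3 of the 7 windows, those of *Upk3b*, *Lrrn4* and an upstream start of *Gpm6a*, against 14.7% of all 32851 windows. The WT1 letters were in 1 window, that of *Lrrn4*, against 31.6% of all windows. An AP-1 site (TGANTCA) was in none of the 7, against 7.81% of all windows, and a TATA box (TATAAA) was in the windows of *Krt8* and *Gpm6a*, against 13.6%. No motif in this search overlaps another in the sequences shown, and a match is only a match of letters.

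Libraries held 21973426 to 26374292 counts on genes, and the 10 mesothelial genes took 765 to 955 of them in saline mice and 5910 to 6378 in PD fluid mice. As a share of all counts the 10 genes made up 0.00360% ± 0.000326 after saline and 0.0251% ± 0.00103 after PD fluid (SD, n = 3 mice each), 6.97 times as much. The mesothelial transcripts were thus a small part of each library. The transcripts of the sort itself were far more abundant, with *Pecam1* (CD31) at 469 ± 19.4 and 514 ± 7.85 CPM after saline and PD fluid, respectively (SD, n = 3 each), where CPM is the TMM-scaled count relative to library size. *Ptprc* (CD45) stood above *Pecam1* in every library, at 1473 ± 63.6 CPM (SD, n = 3 mice) even in the PD fluid mice, where it was lower than in the saline mice. In RNA from many cells, more cells of a type and more RNA per cell cannot be told apart.

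All 10 genes passed the filter on low counts (a minimum of 0.418 CPM), but *Muc16* and *Wt1* did so only through the PD fluid mice. *Wt1* was under the minimum in saline mouse 1 and *Muc16* in saline mice 1 and 3. Both were thus admitted by the group in which they were high. By the quasi-likelihood test of edgeR, with a threshold of 0.05 on the Benjamini-Hochberg adjusted p, each of the 10 genes rose after PD fluid. In that comparison 31.1% of the 14005 genes tested were higher. Each of the 10 rose by at least 2-fold, as did 15.4% of the genes tested. In each, the lowest PD fluid mouse lay above the highest saline mouse, which held for 34.0% of the genes tested. The log2 fold changes ran from 2.02 to 3.92 with a median of 3.57, against a median of 0.02 over all genes tested. A log2 fold change at least as large as that of the gene that rose least was found in 4.48% of the genes tested.

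**Figure D1:**
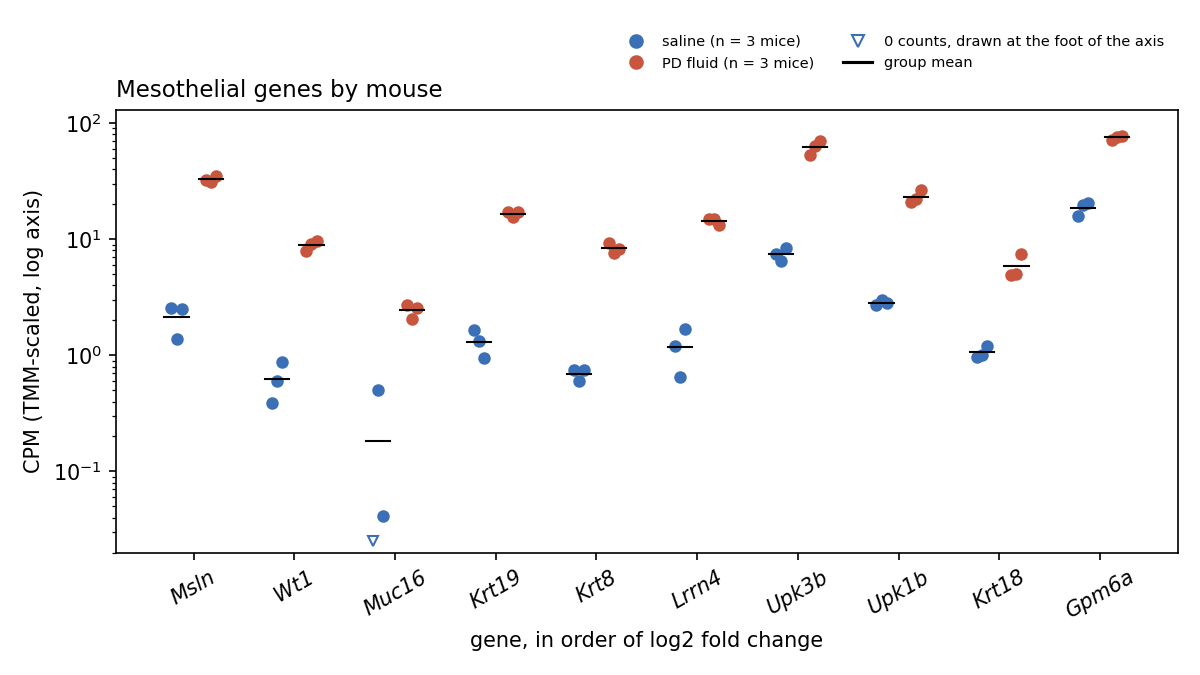
CPM of the 10 mesothelial genes in each mouse, on a log axis, in order of log2 fold change. Points are mice and lines are group means. The saline and PD fluid points of every gene are apart, and the saline points of *Muc16* spread furthest, with 1 mouse at 0 counts.

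Among the genes of the cell surface, *Msln* (ENSMUSG00000063011; chromosome 17 of GRCm38, 25748613 to 25754378) encodes mesothelin, a lipid-anchored glycoprotein. It was at 2.58, 1.38 and 2.48 CPM in the saline mice and at 32.7, 31.4 and 34.8 CPM in the PD fluid mice. The PD fluid mice were close together, and saline mouse 2 was the lowest of the 6. It rose by 3.92 on the log2 scale (SE, the standard error, 0.18, edgeR adjusted p = 2.19e-08), which was the largest value of the 10 genes but lay within 0.08 of that of *Wt1*, with a standard error of the difference of 0.32. The first place changed with the method: with limma-voom *Muc16* stood above *Msln* (4.83 against 3.95), and without saline mouse 3 *Wt1* did (4.17 against 4.02), as did both *Muc16* and *Wt1* without saline mouse 2. *Muc16* (ENSMUSG00000109564; chromosome 9, 18495455 to 18674530), which encodes the large mucin that mesothelin binds, had 0, 11 and 1 counts in the saline mice and 74, 49 and 56 counts in the PD fluid mice. The count of 0 allows up to 3 counts in that library, which covers counting error only. *Muc16* thus had the thinnest data, and its log2 fold change of 3.80 carried a standard error of 0.69 (adjusted p = 0.000763 from the edgeR test). Without saline mouse 2, which alone held 11 counts, the log2 fold change of *Muc16* was 6.60, and it was 3.19 without saline mouse 1.

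The uroplakins are membrane proteins first known from the bladder lining, of which mesothelium makes a subset. *Upk3b* (ENSMUSG00000042985; chromosome 5, 136038496 to 136046487) was at 7.46, 6.55 and 8.36 CPM in the saline mice and at 53.0, 63.3 and 70.6 CPM in the PD fluid mice. *Upk1b* (ENSMUSG00000049436; chromosome 16, 38773184 to 38800328), a tetraspanin, was at 2.73, 3.00 and 2.82 CPM in the saline mice and at 21.0, 22.4 and 26.5 CPM in the PD fluid mice. The 2 genes rose to a like extent, and in both PD fluid mouse 3 was the highest. Their log2 fold changes were 3.06 for *Upk3b* (SE 0.13, edgeR adjusted p = 1.36e-08) and 3.03 for *Upk1b* (SE 0.14, edgeR adjusted p = 2.55e-08), a difference of 0.03 with a standard error of 0.19. The other uroplakins of the bladder lining were nearly or wholly missing. *Upk2* had 0 counts in all 6 mice, *Upk3a* had 0 in each saline mouse and 0 to 4 in the PD fluid mice, and *Upk1a* had 5 to 10 and 7 to 16 counts, respectively. *Upk3bl*, a neighbour and close relative of *Upk3b* on chromosome 5, had 0 to 5 counts in saline mice and 3 to 16 in PD fluid mice. How reads were split between this pair was not tested.

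*Lrrn4* (ENSMUSG00000043110; chromosome 2, 132868305 to 132880891) and *Gpm6a* (ENSMUSG00000031517; chromosome 8, 54954843 to 55060871) encode membrane proteins that were first described in neurons and that also mark mesothelium. *Lrrn4* was at 1.21, 0.646 and 1.70 CPM in the saline mice and at 14.9, 14.8 and 13.1 CPM in the PD fluid mice. It rose by a log2 fold change of 3.57 (SE 0.25, edgeR adjusted p = 5.55e-07), and saline mouse 2 was again the lowest. *Gpm6a* was the most abundant of the 10 genes in every mouse, at 15.8, 19.6 and 20.4 CPM in the saline mice and 70.9, 76.7 and 78.2 CPM in the PD fluid mice. It also rose least, with a log2 fold change of 2.02 (SE 0.10, edgeR adjusted p = 4.85e-08). *Msln* rose by 1.90 more than *Gpm6a* on the log2 scale, with a standard error of that difference of 0.21 if the 2 genes are taken as independent.

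*Wt1* (ENSMUSG00000016458; chromosome 2, 105126529 to 105173616) encodes the zinc finger transcription factor of the embryonic and adult mesothelium, and was the only regulator of transcription among the 10 genes. It had 10, 13 and 21 counts in the saline mice and 214, 216 and 215 counts in the PD fluid mice. On the CPM scale these were 0.391, 0.600 and 0.870 against 7.87, 9.06 and 9.74, with no overlap. The log2 fold change was 3.84 (SE 0.26, edgeR adjusted p = 4.80e-07), next to that of *Msln*.

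Keratins form filaments from pairs of a type II protein, here keratin 8, and a type I protein, here keratin 18 or 19. *Krt8* (ENSMUSG00000049382; chromosome 15, 101996698 to 102004482) and *Krt18* (ENSMUSG00000023043; chromosome 15, 102028180 to 102032027) lie side by side, their starts 23698 bases apart on opposite strands. *Krt8* was at 0.742, 0.600 and 0.745 CPM in the saline mice and at 9.27, 7.59 and 8.29 CPM in the PD fluid mice. *Krt18* was at 0.976, 1.01 and 1.20 CPM in the saline mice and at 4.97, 5.03 and 7.52 CPM in the PD fluid mice. The neighbours did not rise alike. *Krt8* had a log2 fold change of 3.58 (SE 0.21, edgeR adjusted p = 1.63e-07) and *Krt18* of 2.45 (SE 0.25, edgeR adjusted p = 1.37e-05), a difference of 1.13 with a standard error of 0.33. *Krt19* (ENSMUSG00000020911; chromosome 11, 100140810 to 100148665) was at 1.64, 1.34 and 0.952 CPM in the saline mice and at 17.3, 15.6 and 17.1 CPM in the PD fluid mice. Its log2 fold change of 3.66 (SE 0.19, edgeR adjusted p = 5.17e-08) lay within 0.08 of that of *Krt8*. Close copies of keratin genes, and a non-coding gene that GENCODE places on the other strand across the start of *Krt8*, could have shared reads with these genes.

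**Figure D2:**
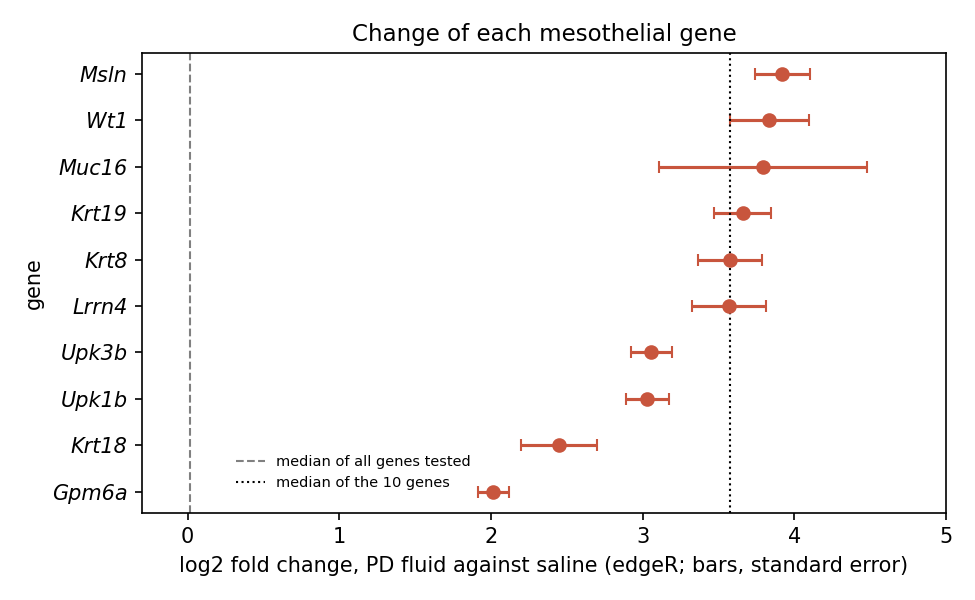
Log2 fold change of each mesothelial gene between PD fluid mice and saline mice, with its standard error from edgeR (n = 3 mice per group). The 6 genes from *Msln* to *Lrrn4* lie between 3.57 and 3.92, the uroplakins just above 3, and *Krt18* and *Gpm6a* at 2.45 and 2.02.

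In the order of log2 fold change, the first 6 genes (*Msln*, *Wt1*, *Muc16*, *Krt19*, *Krt8* and *Lrrn4*) differed from their neighbours by 0.01 to 0.14, each less than the standard error of the difference. The step from *Lrrn4* down to *Upk3b* was 0.51 with a standard error of 0.28, that from *Upk1b* to *Krt18* was 0.58 with a standard error of 0.29, and that from *Krt18* to *Gpm6a* was 0.43 with a standard error of 0.27. Ranked among all 14005 genes tested, *Msln* was at position 131 and *Gpm6a* at position 627. The order of levels is given per length, by the FPKM values (counts divided by gene length and library size) that the authors deposited. In PD fluid mice the levels were 23.5 FPKM for *Gpm6a*, 17.7 for *Upk3b*, 15.8 for *Msln*, 12.3 for *Upk1b* and 10.6 for *Krt19*. *Krt8*, *Krt18*, *Wt1* and *Lrrn4* followed at 3.86 to 4.30 FPKM with overlapping mice, and *Muc16* was last at 0.191 FPKM. In saline mice *Gpm6a* was at 5.77 FPKM and *Upk3b* at 2.11 FPKM. *Msln*, at 1.02 FPKM, was then below *Upk1b*, at 1.50 FPKM, and *Krt8*, at 0.354 FPKM, was below *Krt18*, at 0.738 FPKM.

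The makeup of the mesothelial counts therefore differed between the groups, and the following ratios were chosen after the values were seen and were not tested. *Gpm6a* held 47.1%, 55.7% and 51.5% of the counts of the 10 genes in the saline mice and 30.2%, 30.9% and 29.1% in the PD fluid mice. *Upk3b* held 18.6% to 22.2% in the saline mice and 22.6% to 26.3% in the PD fluid mice. The 3 keratins together held 8.57% ± 1.35 and 12.4% ± 1.04 of these counts (SD, n = 3 mice each). None of these shares overlapped between the groups. The ratio of *Msln* to *Upk3b* in FPKM was 0.354 to 0.579 in saline mice and 0.816 to 1.03 in PD fluid mice. The ratio of *Krt8* to *Krt18* in FPKM was 0.433 to 0.558 in saline mice and 0.809 to 1.37 in PD fluid mice. When *Krt19* was added to *Krt18*, the ratio of the type I transcripts to *Krt8* was 3.78 to 5.08 in saline mice and 3.05 to 3.80 in PD fluid mice, and the groups overlapped.

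**Figure D3:**
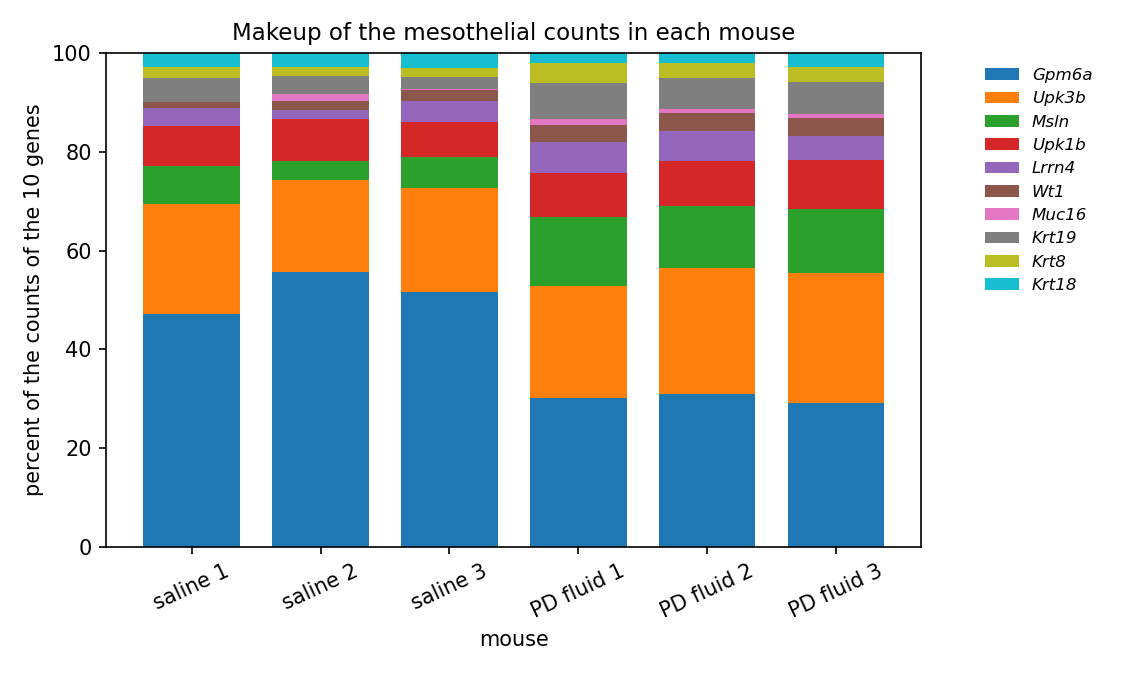
Share of each mesothelial gene in the summed counts of the 10 genes, in percent, for each mouse. The *Gpm6a* share is 47.1% to 55.7% in the saline mice and 29.1% to 30.9% in the PD fluid mice, while the shares of *Msln* and the keratin genes *Krt8* and *Krt19* are larger in the PD fluid mice.

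The same comparison was made for 18 further genes known from mesothelium. Like the 10 genes, they were chosen with earlier results of these data known, so they are not an independent check. Of the 18 genes, 17 passed the filter and 15 were higher in PD fluid mice. *Dpp4* was lower (as were 27.8% of all genes tested) and *Ezr* did not pass the test. The median log2 fold change of the 17 genes was 2.41. *Bnc1*, a zinc finger protein of mesothelial and squamous cells, had 12, 2 and 3 counts in the saline mice and 116, 91 and 67 in the PD fluid mice, a log2 fold change of 3.95 (SE 0.44, edgeR adjusted p = 2.61e-05). *Cdh3*, a cadherin, had 5, 3 and 10 counts in the saline mice and 82, 87 and 80 in the PD fluid mice. *Krt7*, a simple type II keratin, had 4, 4 and 13 against 99, 91 and 94, and *Anxa8*, an annexin, had 4, 1 and 7 against 66, 44 and 53. The log2 fold changes of these 3 genes were 3.74, 3.71 and 3.69. *Bnc1*, *Cdh3*, *Krt7* and *Anxa8* were under the minimum of the filter in most or all saline mice. They were therefore tested only because of their counts in the PD fluid mice. *Rspo1*, an enhancer of WNT signalling, rose by 2.65 on the log2 scale, *Pdpn*, the membrane mucoprotein podoplanin, by 2.64, *Efemp1*, a matrix protein, by 2.41 and *Aldh1a2*, an enzyme of retinoic acid synthesis, by 2.10. *Calb2*, which encodes calretinin, a standard stain for human mesothelium, had only 2 to 6 counts in the saline mice and 13 to 25 in the PD fluid mice. *Crb2* had 0 to 1 counts in the saline mice and 9 to 17 in the PD fluid mice, and was not tested. The exceptions were abundant genes. *Dpp4* averaged 199 ± 18.5 CPM after saline and 145 ± 3.46 CPM after PD fluid (SD, n = 3 mice each). *Ezr* averaged 189 ± 16.7 and 162 ± 18.4 CPM (SD, n = 3 mice each), with an adjusted p of 0.057 from the edgeR test and of 0.0376 with DESeq2. Under DESeq2, *Ildr2* lost its call (adjusted p = 0.0522 with DESeq2). Other cells can also express genes of this list, both those that rose and the exceptions, and their part was not tested. *Ezr* was also lower in edgeR without saline mouse 3 (adjusted p = 0.0215) or PD fluid mouse 1 (adjusted p = 0.0129). Saline mouse 2 was low in some of the mesothelial genes, with 0 counts of *Ildr2* against 20 and 18 in the other saline mice and 9 of *Nkain4* against 22 and 25. In others, such as *Cldn15* and *Efemp1*, it was the highest saline mouse, at 14.8 and 13.5 CPM. The summed level of the 10 genes was 35.3 CPM in saline mouse 2, between the other saline mice at 33.5 and 39.5 CPM.

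Among 13 relatives of the 10 genes, 7 had too few counts to be tested, 4 were higher and none was lower, and 2 did not pass the test (*Lrrn3* and *Gpm6b*). *Gpm6b*, the paralog of *Gpm6a*, averaged 20.0 ± 0.581 CPM after saline and 18.6 ± 1.19 CPM after PD fluid (SD, n = 3 mice each), with a log2 fold change of -0.11 (SE 0.10, edgeR adjusted p = 0.375). *Lrrn1* and *Lrrn2*, relatives of *Lrrn4*, rose by 2.29 and 2.86 on the log2 scale (standard errors 0.46 and 0.44), whereas *Lrrn3* had a value of 0.10 (standard error 0.36). In the saline mice *Lrrn1* had 4, 14 and 18 counts and *Lrrn2* had 8, 3 and 18. Both *Lrrn1* and *Lrrn2* passed the filter on low counts only through the PD fluid mice. Of the other membrane mucins, *Muc13* rose by 1.76 and *Muc1* by 0.81 (adjusted p = 0.047 from the edgeR test), but the call of *Muc1* was lost in edgeR without saline mouse 1, 2 or 3 or PD fluid mouse 1 or 2 (adjusted p = 0.0641 to 0.164), without the filter on low counts (0.060) and with the replicate number as a block (0.0757), and also with DESeq2. *Muc13* had 2 to 7 counts in the saline mice and 18 to 20 in the PD fluid mice. *Muc15* had 0 counts in all 6 mice, and *Muc4* had 1 count in a single PD fluid mouse. Of 12 other keratins, 4 were tested and 3 were higher, of which *Krt80*, the most abundant, rose by 1.53 on the log2 scale. *Krt20* had 0, 4 and 5 counts in the saline mice and 35, 45 and 50 in the PD fluid mice, and *Krt14* had 6, 3 and 4 against 41, 26 and 24. *Krt10*, the keratin of differentiated epidermis, did not pass (log2 fold change -0.33, standard error 0.19). *Krt5*, *Krt6a*, *Krt13* and *Krt15*, keratins of stratified epithelia, had 0 counts in every mouse.

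Markers of other cell types moved in the same comparison, and their part in the rise of the 10 genes was not tested. All 10 fibroblast genes were higher, with a median log2 fold change of 2.80 and a summed level of 102 to 109 CPM in saline mice and 888 to 926 CPM in PD fluid mice. *Dcn*, a matrix proteoglycan, was the most abundant at 550 ± 43.4 CPM in PD fluid mice (SD, n = 3 mice), and *Lum* and *Col1a1* rose most, by 3.91 and 3.85. Of 15 pancreatic acinar genes, 14 were tested and all 14 were higher, with a summed level of 3.55 to 7.42 CPM in saline mice and 8009 to 9006 CPM in PD fluid mice, among them *Cela2a*, a digestive elastase, and *Cpa1*, a carboxypeptidase. *Krt8*, *Krt18* and *Krt19* are also made by pancreatic and intestinal epithelium, and how much such cells added to the keratin counts was not tested. Of 8 pancreatic duct genes, 5 were tested and 4 were higher, with a summed level of 9.15 to 10.7 CPM in saline mice and 88.4 to 103 CPM in PD fluid mice. Most of that sum was *Spp1*, which macrophages also make, while *Cftr*, the chloride channel of duct cells, had 0 counts in each saline mouse and 5, 6 and 0 in the PD fluid mice. *Tff2* had 0 counts in each saline mouse and 169, 188 and 143 in the PD fluid mice, and *Ambp* had 0 to 1 and 11 to 23 counts.

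Of 8 pan-epithelial genes, 5 were tested and 3 were higher, with a summed level of 7.54 to 9.41 CPM in saline mice and 13.8 to 14.8 CPM in PD fluid mice. *Cldn3*, a claudin of tight junctions, had 1, 0 and 3 counts in the saline mice and 28, 17 and 18 in the PD fluid mice, and *Cldn7*, another, had 0, 3 and 1 against 14, 15 and 10. Both were at 3 counts or fewer in every saline mouse and passed the filter on low counts through the PD fluid mice, so no fold change is given. *Epcam*, the adhesion molecule that most epithelia carry and mesothelium lacks, averaged 5.57 ± 1.09 CPM after saline and 6.01 ± 0.490 CPM after PD fluid (SD, n = 3 mice each), a log2 fold change of 0.11 (SE 0.18, edgeR adjusted p = 0.622). Of 10 intestinal genes, 5 were tested, 3 higher and 1 lower, with a summed level of 143 to 166 CPM in saline mice and 190 to 220 CPM in PD fluid mice, most of it *Lyz1*, a lysozyme that macrophages can also make. *Cdx2*, the regulator that defines intestinal epithelium, had 0 counts in all 6 mice, and *Fabp2*, an enterocyte gene, had 0 counts in each saline mouse and 22, 13 and 30 in the PD fluid mice. *Alpi*, the intestinal alkaline phosphatase, had 0, 0 and 1 counts against 16, 13 and 18. The gene called lower, *Cdh17*, went from 28.3, 31.6 and 25.4 CPM in the saline mice to 12.5, 14.5 and 20.0 CPM in the PD fluid mice. This was a fall of -0.86 on the log2 scale (SE 0.16, edgeR adjusted p = 0.000913). *Lgals4* did not pass the test, with a mean of 15.7 CPM after saline and 13.8 CPM after PD fluid. Both *Cdh17* and *Lgals4* were more abundant than *Fabp2* and *Alpi*.

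Among the remaining lists, 11 of 12 endothelial genes were higher, with a median log2 fold change of 0.96 and a summed level of 1195 to 1211 CPM in saline mice and 1908 to 2018 CPM in PD fluid mice. *Pecam1* did not pass the test, at 0.13 (SE 0.06, edgeR adjusted p = 0.070), though it passed without saline mouse 2 (adjusted p = 0.0279 in edgeR), and *Tie1* and *Vwf* rose most, by 1.65 and 1.48. The *Upk3b* level was 1.22% to 1.67% of the *Pecam1* level in saline mice and 9.43% to 12.6% in PD fluid mice, both in FPKM. When the libraries were scaled to the summed counts of the 12 endothelial genes instead, the median of all genes tested shifted to -0.68 and 12.0% of genes were higher, and all 10 mesothelial genes were still higher, with log2 fold changes from 1.32 for *Gpm6a* to 3.22 for *Msln*. That scaling lowered each of the 10 by about as much as the median of all genes, so it could not reverse the direction of genes that rose this much. All 8 genes of smooth muscle and pericytes were higher, with a median of 1.59 and a summed level of 280 to 299 CPM in saline mice and 453 to 501 CPM in PD fluid mice. *Cnn1* (calponin) and *Des* (desmin), proteins of muscle cells, rose most, by 2.49 and 2.38 on the log2 scale. *Rgs5*, a pericyte gene and the most abundant of the list, rose by 0.26, a call that was lost without saline mouse 1 (adjusted p = 0.0593 in edgeR), and *Cspg4* lost its call without saline mouse 3 or PD fluid mouse 1 (0.0545 and 0.0674). With scaling to the endothelial genes, 5 of the 8 were higher and *Rgs5* was lower, at -0.44. Of 6 adipocyte genes, 5 were tested and only *Fabp4*, which capillary endothelium also expresses, was higher, by 0.51. *Plin1*, which coats lipid droplets, had a value of 0.54 (SE 0.49, edgeR adjusted p = 0.364). The summed level of the adipocyte list was 435 to 565 CPM in saline mice and 691 to 729 CPM in PD fluid mice. Most of that sum was *Fabp4*, at 492 ± 64.0 CPM after saline and 699 ± 19.3 CPM after PD fluid (SD, n = 3 mice each). *Adipoq*, *Cidec* and *Retn* did not pass the test, with log2 fold changes of -0.30, -0.36 and -0.07. Of 12 leukocyte genes, 5 were higher and 6 lower, and the summed level was 9679 to 10288 CPM in saline mice and 11884 to 12710 CPM in PD fluid mice. *Lyz2*, the lysozyme of myeloid cells and a close copy of *Lyz1*, was the most abundant and rose by 2.03 on the log2 scale. It averaged 1634 ± 63.5 CPM after saline and 6690 ± 339 CPM after PD fluid (SD, n = 3 mice each). That rise was larger than the rise of the summed level, and the rest of the sum was lower in PD fluid mice. *Adgre1*, a macrophage receptor, rose by 2.04 and *S100a8*, a neutrophil protein, by 5.87, while the 6 that fell were B cell and T cell genes and *Ptprc*.

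**Figure D4:**
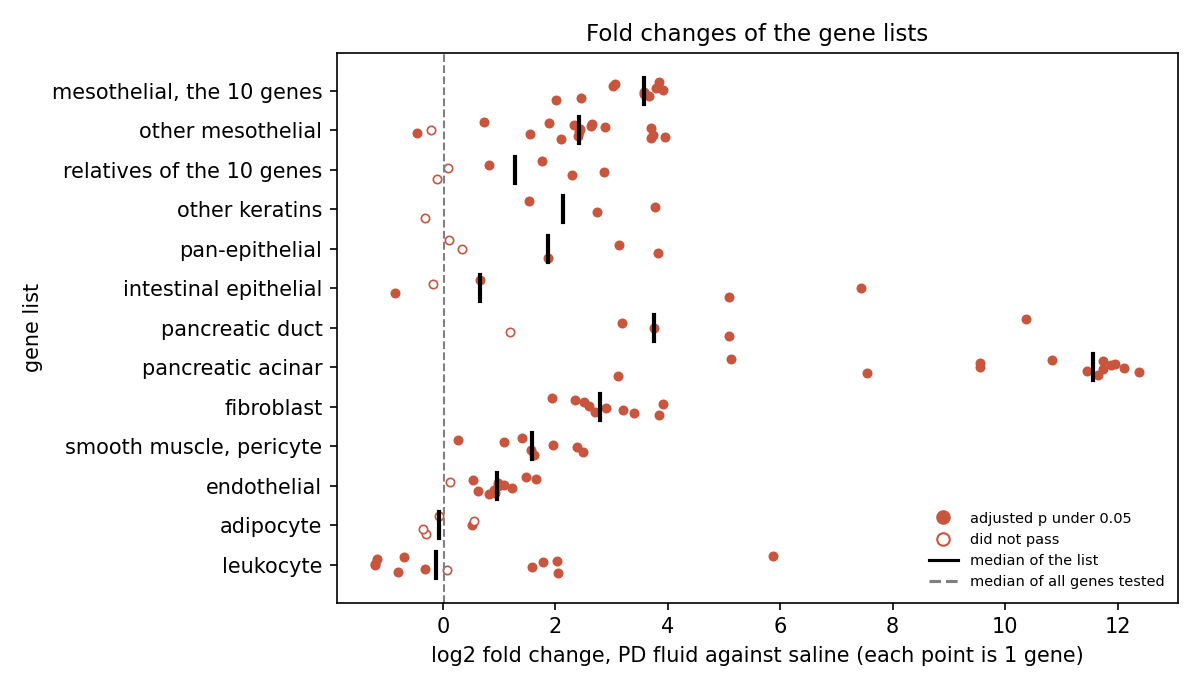
Log2 fold change of every tested gene in each list, with filled points for an adjusted p under 0.05 in the edgeR test, the median of the list and the median of all genes tested. The 10 mesothelial genes lie between 2.02 and 3.92, above the endothelial median of 0.96 and well below most acinar genes. The fibroblast genes span a like range, 1.94 to 3.91. The median drawn for the pancreatic duct genes is the value of *Sox9*, which had 0, 2 and 2 counts in the saline mice. *Sox9* was tested only because of its counts in the PD fluid mice, so that median is not compared with the other lists. The values of *Tff2* and *Fabp2*, which had 0 counts in all saline mice, depend on the constant that edgeR adds.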

How the data were processed

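Mice were grouped by the sample labels, and every column of per-mouse values matched a label. Raw read counts per gene and mouse were deposited by the authors, with no normalization. They also deposited FPKM values per mouse, which were used here only to compare levels between genes and were not tested. The group means, log2 ratio, p-value and FDR columns of the authors' own comparison were not used. The submitters' processing notes name fastp 0.18.0, Bowtie2 2.2.8, HISAT2, StringTie 1.3.1 and RSEM. The genome build and annotation are not given in the sources used here, so positions are those of GENCODE M21 on GRCm38, to which 22128 identifiers matched.

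Counts were filtered by edgeR's filterByExpr (at least 10 counts in a library of median size), given TMM factors, and compared between groups by the quasi-likelihood test in edgeR without covariates. P-values were adjusted over all 14005 genes tested, with a threshold of 0.05. Versions were edgeR 4.0.16, DESeq2 1.42.0, limma 3.58.1, R 4.3.3 and Python 3.11.15. Standard errors were derived from the F statistic. The fits were tested on simulated data with 200 changed genes, far fewer than were called here, so that test does not cover a shift as broad as this one. The alternatives were DESeq2, limma-voom (limma being the package the study names), no filter, the replicate number as a block, scaling to endothelial genes, a fold change of at least 2, and leaving out each mouse in turn. A share of counts was also taken without the acinar genes.

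The 10 genes and all lists were chosen with earlier results of these data known. Named genes are the 10, any of the other mesothelial genes and relatives, the genes of the sort, and from each further list the most abundant gene and the 2 that changed most. *Cftr*, *Cdx2*, *Krt10*, *Sox9*, *Cdh17*, *Retn*, the genes at 0 counts and those that changed call under an alternative were named after their values were seen. Of the list of relatives, 1 gene is not reported here and was left out of its counts. With total counts of 21973426 to 26374292 per mouse, a gene at 3 counts or fewer was taken to lie at the detection limit. Separate mice are the replicates, 3 per group.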

Additional observations from a re-analysis of the deposited data

How the results depend on the processing

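Each of the 10 mesothelial genes passed the threshold in the upward direction under every alternative that was run, namely DESeq2, limma-voom, no filter on low counts, the replicate block, scaling to endothelial genes and leaving out each mouse. The largest adjusted p of any of the 10 was 0.0117, for *Muc16* with DESeq2. The median of their log2 fold changes was 3.38 to 3.61 with each mouse left out in turn and 2.87 with scaling to endothelial genes, which moved the median of all genes tested from 0.02 to -0.68. Under that scaling 1685 genes were higher and 8990 lower, against 4359 and 3887, and among the lists described, *Pecam1*, *Epcam*, *Gpm6b*, *Krt10*, *Ezr*, *Rgs5*, *Lgals4*, *Adipoq*, *Cidec* and *Cd3e* were lower in place of higher or not called, *Sulf1*, *Muc1*, *Muc13*, *Lyz1*, *Fabp4*, *Cspg4* and *Pdgfrb* were no longer higher, and 6 of 12 endothelial and 5 of 8 smooth muscle and pericyte genes were higher. A 2-fold minimum left 2158 genes higher and 252 lower, the 10 genes among the former. The share of counts held by the 10 genes was 6.73 to 7.34 times as large in PD fluid mice with each mouse left out, and 7.03 times without the counts of the acinar genes. The acinar genes held at most 0.879% of the counts of a mouse, so leaving them out could change that share only slightly.

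The same replicate numbers occur in both groups, but deviations of same-numbered mice correlated at 0.10, 0.04 and -0.17, so the numbers were not taken as pairs. With the replicate block, 4242 genes were higher and 3667 lower, the 10 genes had log2 fold changes of 2.02 to 3.94, and *Ezr* was lower (adjusted p = 0.0174 in edgeR). Depth limits *Muc16*, with 12 counts over the saline mice, and the genes of a few counts in the saline mice. Those of them that were tested and called higher passed the filter on low counts through the PD fluid mice.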
